A study of Mus musculus with 6 samples.

Results

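The HoxB genes form 1 of the 4 mammalian Hox clusters, which encode homeodomain transcription factors. The members described here are Hoxb1, Hoxb2, Hoxb3, Hoxb4, Hoxb5, Hoxb6, Hoxb7, Hoxb9 and Hoxb13, chosen as the HoxB genes for which a probe set of the array named that gene alone. These 9 genes of 18194 measured had 11 probe sets of 45101 on the array, and 1 further probe set named Hoxb7 together with Hoxb8. RNA came from branchial arch 1, the embryonic tissue that builds the jaws, dissected from mouse embryos on embryonic day 11.5, with 1 arch per embryo and 1 single-colour array per arch. All 6 embryos were homozygous for a lox allele of Ezh2, which encodes the enzyme of Polycomb repressive complex 2 (PRC2). The 3 control-labelled embryos (Ezh2lox/lox) had no further allele named, and the 3 mutant-labelled embryos (Wnt1Cre Ezh2lox/lox) also carried the Wnt1-Cre transgene, which acts in the neural crest lineage, so that by design other cells of the arch keep Ezh2. The comparison asks how HoxB gene expression differs between arches with and without crest-directed deletion of Ezh2.

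As background, Hox genes are ordered along the chromosome in the order of their expression along the body axis, from low paralogue numbers in the hindbrain to high ones in the tail. PRC2 methylates histone H3 and keeps Hox clusters silent outside their domains. Neural crest cells that fill the first arch are normally free of Hox expression, which begins in the second arch.

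Values are log2 signals, so that a change of 1 is a 2-fold difference. A single value per probe set and array was deposited, and 25% of all probe-set values lay below 4.33 on this scale. This 25th percentile marks low signals, and the background of single probe sets was not measured. Of the genes with several probe sets, the one with the highest mean represents the gene. Changes are labelled mutant minus labelled control, with the standard error (SE) and the Benjamini-Hochberg adjusted p over all 18194 genes from limma, and a gene passed below 0.05. Means are given ± SD with n = 3 arrays.

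The labels could be checked only in part. Ezh2, represented by a single probe set, read 11.80, 11.52 and 11.56 in the control-labelled arches and 11.66, 11.66 and 11.65 in the mutant-labelled arches, and where this probe set lies relative to the deleted part is not known here, so it checks neither label. Xist, expressed from the inactive X chromosome of females, averaged 5.62 in the control-labelled and 13.03 in the mutant-labelled arches, and the Y-linked gene Kdm5d averaged 9.18 and 2.95. Embryo sex and genotype label therefore cannot be told apart in any value below. HoxB genes were higher in the control-labelled arches, which is the reverse of the textbook direction after loss of PRC2, so each group goes by its label here. Whether the labels were exchanged in the record was not determined, and if they were, every change below would keep its size and turn its sign. None of 15 arch 1 mesenchyme markers measured lay below the 25th percentile on every array, and the arrays correlated at 0.988 to 0.992 between groups and 0.995 to 0.998 within them.

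The mutant-labelled arches had lower signals of most HoxB genes. Of the 9 members 7 fell, 0 rose and 2 did not pass (limma, adjusted p below 0.05; at an unadjusted p below 0.05 also 0 were higher). Over all 18194 genes 4.3% fell, 224 genes rose, and 5.53% passed in either direction. The count of 1007 genes that passed (783 lower) became 551 (462 lower) without control-labelled array 2, 481 (409 lower) without mutant-labelled array 2 and 435 (372 lower) without mutant-labelled array 3. In 8 of the 9 members all 3 mutant-labelled arrays lay below all 3 control-labelled arrays, which held for 11.9% of all genes. The median change was -0.73 over the members and 0.02 over all genes. The falls were of unequal size. Hoxb3 and Hoxb13 had changes of -4.44 and -3.35, whereas the other 5 that passed lay between -1.09 and -0.56. In whole arches, fewer cells that express a gene and less RNA per cell cannot be told apart.

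**Figure D1:**
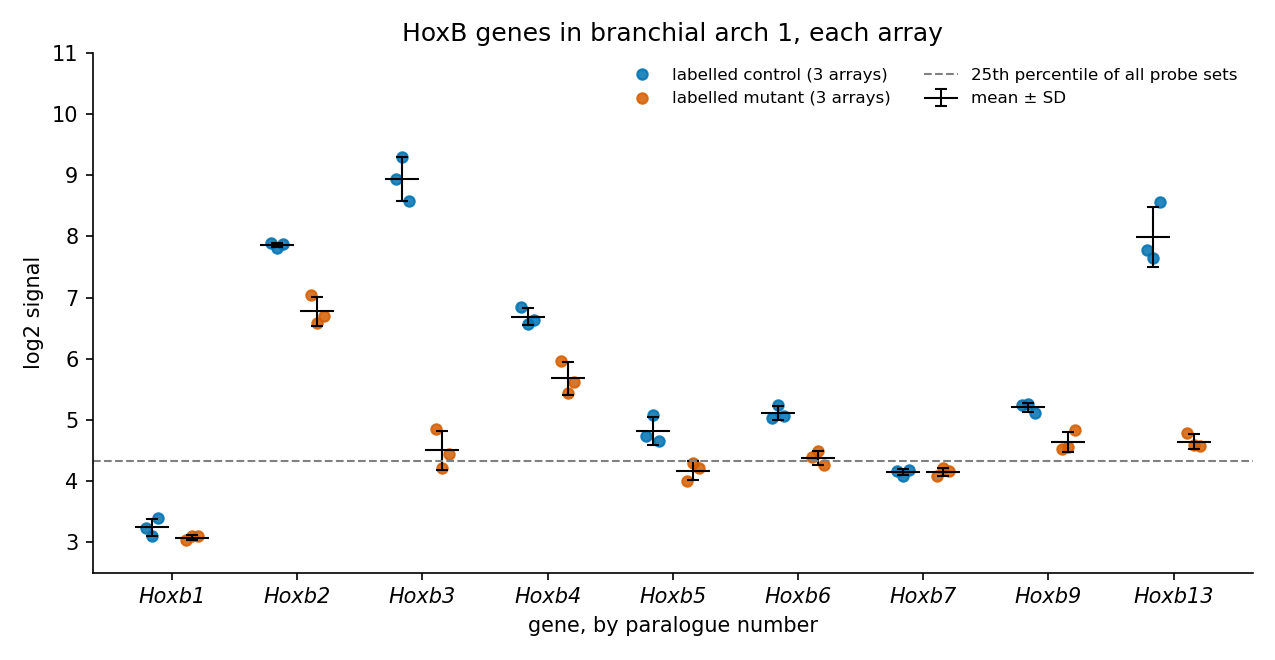
Log2 signal of the 9 HoxB genes on each array, by paralogue number; points are arrays (3 labelled control, 3 labelled mutant), bars the mean ± SD, and the dashed line the 25th percentile of all probe sets. Hoxb3 and Hoxb13 show the widest gaps between groups, and Hoxb1 and Hoxb7 lie below the line in both groups.

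Hoxb1 and Hoxb2 lie at the end of the cluster that is used in the hindbrain. Hoxb1, which gives the fourth hindbrain segment its identity and sustains its own transcription there, read 3.23, 3.10 and 3.39 in the control-labelled arches and 3.03, 3.09 and 3.10 in the mutant-labelled arches. All of these signals lay between percentiles 0.894 and 5.5 of their array, so that Hoxb1 gave only very low signals in either group. The groups were separated by only 0.002, and the change of -0.17 (SE 0.09) did not pass (limma, adjusted p = 0.375; 95% interval -0.37 to 0.04).

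Among the members only Hoxb1 and Hoxb4 had a promoter entry in the reference used here, so these promoters are shown. That of Hoxb1, a member with very low signals in both groups, comes first. The stretch runs from 250 bases before to 50 after the start of the gene (RefSeq, GRCm38.p6, chr11:96365508-96365807, plus strand). Capitals mark the only match to TGATNNAT, the letters read jointly by Hox and Pbx proteins. AGGTCA, a motif bound by retinoic acid receptors, and TATAAA were searched as well, on both strands, with 0 matches. A single match to such letters does not show binding, which was not tested for either promoter.
Hoxb1 promoter: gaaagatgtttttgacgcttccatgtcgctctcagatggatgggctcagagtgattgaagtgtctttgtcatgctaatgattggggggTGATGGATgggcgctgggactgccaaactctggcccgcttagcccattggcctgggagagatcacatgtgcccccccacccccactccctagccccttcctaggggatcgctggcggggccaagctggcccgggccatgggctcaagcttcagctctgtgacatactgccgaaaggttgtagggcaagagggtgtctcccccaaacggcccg

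Letters TGATNNAT occur in 8.85% of the 32851 promoters of this length in the table, AGGTCA in 16.3% and TATAAA in 13.6%. The Hoxb1 stretch held 10 CG dinucleotides, more than 56.5% of all promoters did, whose median was 7.

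Hoxb2, a hindbrain gene acting beside Hoxb1 and also used in the second arch, read 7.88, 7.82 and 7.87 in the control-labelled arches and 7.04, 6.58 and 6.70 in the mutant-labelled arches. The control-labelled arches were nearly equal, the mutant-labelled arches spread more widely, and the groups did not overlap. Hoxb2 fell by 1.09 (SE 0.12, 2.12-fold; limma, adjusted p = 0.0015) and remained between percentiles 59.5 and 64.2 of the mutant-labelled arrays.

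Hoxb3, needed with its paralogues for the third arch, thyroid and hindbrain, showed the largest change of the cluster. It read 8.94, 9.30 and 8.59 in the control-labelled arches and 4.84, 4.21 and 4.45 in the mutant-labelled arches. Every mutant-labelled array lay at least 3.74 below every control-labelled array. Hoxb3 fell from 8.94 ± 0.36 to 4.50 ± 0.32, by 4.44 (SE 0.20, 21.7-fold; limma, adjusted p = 8.94e-06), which ranked 10 among all genes by size of change. The mutant-labelled level was close to the 25th percentile, where background may compress the fold.

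The pair of Hoxb3 probe sets gave different sizes of change. Probe set 1456229_at, whose values are those above, carried the large fall. Probe set 1427605_at read 7.06, 6.86 and 7.14 in the control-labelled and 6.46, 5.67 and 6.00 in the mutant-labelled arches, a change of -0.98 (SE 0.19; limma, adjusted p = 0.0436 over all probe sets). Its groups also did not overlap, and its mutant-labelled signals stayed above the 25th percentile. Within each array the first minus the second probe set gave 1.88, 2.44 and 1.45 in the control-labelled arches and -1.62, -1.46 and -1.55 in the mutant-labelled arches. These differences did not overlap between the groups. The difference of the changes was -3.46 (exact permutation test over arrays, two-sided p = 0.1, the smallest that 3 against 3 arrays allow). Averaged over both probe sets, Hoxb3 fell by 2.71, a smaller change than that of Hoxb13 (-3.35). In the RefSeq gene table the span of Hoxb3 contains the whole of Hoxb4, and which transcripts each probe set reads was not determined here.

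Hoxb4, known for its roles in the posterior hindbrain and in blood stem cells, read 6.84, 6.57 and 6.64 in the control-labelled arches and 5.97, 5.45 and 5.62 in the mutant-labelled arches. Groups did not overlap, and mutant-labelled array 1 was the highest of its group. Hoxb4 fell by 1.01 (SE 0.14, 2.01-fold; limma, adjusted p = 0.0043), a call lost when low signals of all genes were floored (0.0661). Its dimmer probe set 1451761_at changed by -0.50 (SE 0.10; limma, adjusted p = 0.0501 over all probe sets), from 5.19, 5.12 and 5.21 to 4.69, 4.50 and 4.83. For this pair of probe sets the difference of the changes was -0.51 (exact permutation test, two-sided p = 0.1, again the smallest possible).

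Shown for comparison is the promoter of Hoxb4, a member that fell, over the same window (RefSeq, GRCm38.p6, chr11:96318017-96318316, plus strand). Capitals mark a match to AGGTCA on the minus strand, 81 bases before the start; TGATNNAT and TATAAA had 0 matches.
Hoxb4 promoter: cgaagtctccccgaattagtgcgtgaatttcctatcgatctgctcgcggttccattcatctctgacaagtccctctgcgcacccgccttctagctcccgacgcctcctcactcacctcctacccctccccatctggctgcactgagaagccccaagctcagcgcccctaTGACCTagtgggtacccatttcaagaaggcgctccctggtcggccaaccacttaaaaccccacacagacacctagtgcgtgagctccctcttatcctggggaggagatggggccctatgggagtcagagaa

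With 14 CG dinucleotides the Hoxb4 stretch held more of them than 63.7% of all promoters, and its GC content was 58.0%, against 59.3% in Hoxb1. Both windows thus lie above the median in CG content, and they differ in the letters searched. Of the 9 members, these 2 matched an entry of the promoter table.

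Hoxb5, Hoxb6 and Hoxb9 changed less and at low signals. Hoxb5, which acts in the vagal crest that forms the gut's nervous system, read 4.73, 5.08 and 4.65 against 3.997, 4.29 and 4.21 in the mutant-labelled arches, and fell by 0.65 (SE 0.13, 1.57-fold; limma, adjusted p = 0.0221). All 3 mutant-labelled values lay below the 25th percentile. Without control-labelled array 2, or without mutant-labelled array 1, 2 or 3, Hoxb5 no longer passed (limma, adjusted p = 0.0545, 0.0686, 0.0503 and 0.0775 in that order), nor with floored signals (0.103).

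Hoxb6, a trunk gene expressed in the lateral mesoderm, read 5.03, 5.24 and 5.07 in the control-labelled and 4.39, 4.48 and 4.26 in the mutant-labelled arches. The groups were 0.54 apart at their nearest arrays, and Hoxb6 fell by 0.73 (SE 0.09, 1.66-fold; limma, adjusted p = 0.0031). This call held when any single array was left out, with limma adjusted p up to 0.0204.

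Hoxb9, which patterns the thoracic skeleton with its paralogues, read 5.24, 5.25 and 5.11 in the control-labelled and 4.52, 4.56 and 4.83 in the mutant-labelled arches. The nearest arrays of the groups were 0.28 apart. Hoxb9 fell by 0.56 (SE 0.10, 1.48-fold; limma, adjusted p = 0.0137), but not past the threshold without control-labelled array 2 (limma, adjusted p = 0.0625) or mutant-labelled array 2 (0.0712), nor with the replicate number as a block (0.0502) or floored signals (0.0758).

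Hoxb7, another trunk gene, read 4.15, 4.09 and 4.18 in the control-labelled and 4.08, 4.21 and 4.16 in the mutant-labelled arches. The groups overlapped, and all 6 values lay below the 25th percentile. Its change of 0.01 (limma, adjusted p = 0.966, 95% interval -0.16 to 0.18) is that of a probe set with low signals. It does not show how the gene itself behaved. The separate probe set that names Hoxb7 together with its neighbour Hoxb8, 1452493_s_at, read 5.74, 5.22 and 5.29 against 4.49, 4.80 and 4.73. Here the groups did not overlap, and the change of -0.74 (SE 0.15) just missed the threshold (limma, adjusted p = 0.0557 over all probe sets). Its signal cannot be assigned to either gene.

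Hoxb13, the member farthest from the rest of the cluster, acts at the tail end of the body axis and in the prostate. It read 7.77, 7.65 and 8.56 in the control-labelled arches and 4.78, 4.58 and 4.57 in the mutant-labelled arches. Control-labelled array 3 stood highest, the 3 mutant-labelled arrays were close together, and the nearest arrays of the groups were 2.87 apart. Hoxb13 fell by 3.35 (SE 0.21, 10.2-fold; limma, adjusted p = 7.48e-05), which ranked 18 among all genes by size of change. The mutant-labelled level lay between percentiles 29.8 and 33.8 of its array.

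By probe set, 7 of the 11 that name a single HoxB gene fell (limma, adjusted over all 45101 probe sets), against 1.77% of all probe sets. The 4 that did not pass were those of Hoxb1, Hoxb5 and Hoxb7 and the dimmer one of Hoxb4. Hoxb5 thus passed at gene level only, where fewer features are tested. Without mutant-labelled array 2, or without mutant-labelled array 3, the count was 4.

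**Figure D2:**
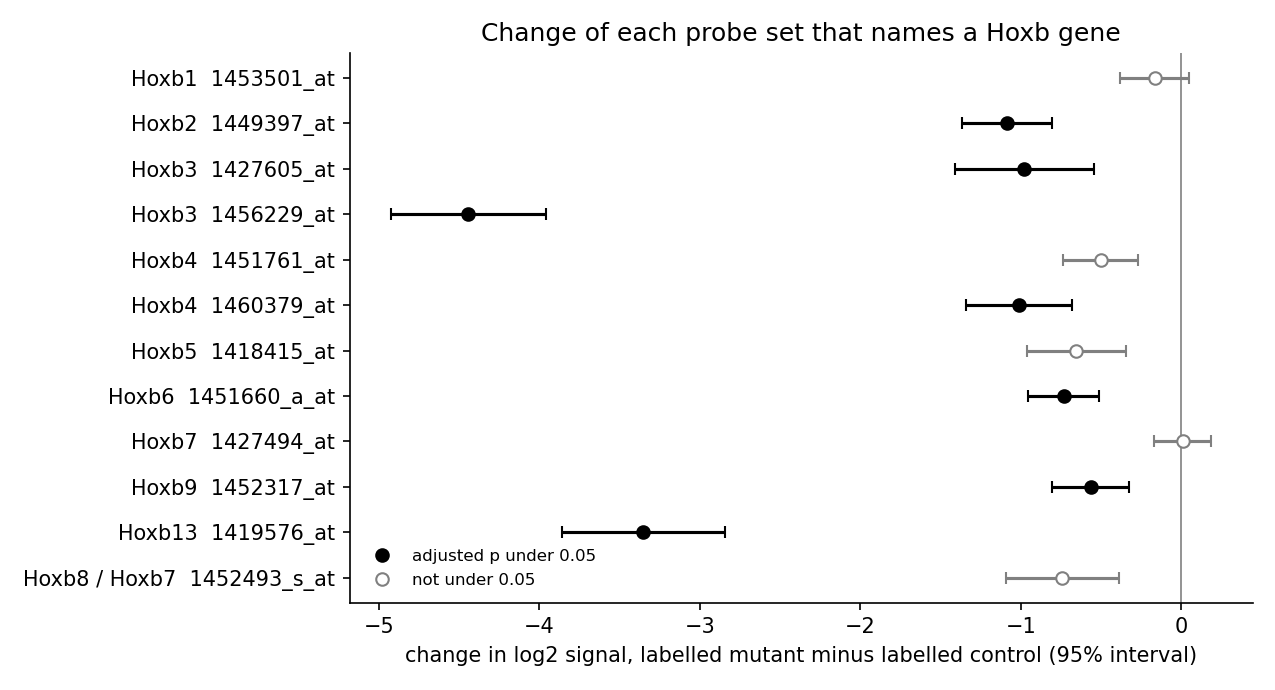
Change in log2 signal with its 95% interval for each probe set that names a Hoxb gene; filled points passed an adjusted p of 0.05 over all probe sets. Intervals of Hoxb3 (1456229_at) and Hoxb13 lie apart from those of all other probe sets shown, whose changes range from -1.09 to 0.01.

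The order of the falls did not follow the order of the genes. From Hoxb1 to Hoxb13 the changes were -0.17, -1.09, -4.44, -1.01, -0.65, -0.73, 0.01, -0.56 and -3.35, with the 2 largest separated by 5 members that changed by about 1 or less. The 95% interval of Hoxb3, -4.90 to -3.98, and that of Hoxb13, -3.83 to -2.87, overlapped neither each other nor those of the remaining members. The intervals of Hoxb2 (-1.35 to -0.82), Hoxb4 (-1.32 to -0.70), Hoxb5 (-0.95 to -0.36) and Hoxb6 (-0.94 to -0.52) overlapped one another, while that of Hoxb9 (-0.79 to -0.34) overlapped all of these but Hoxb2. Differences in size between members were not tested.

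The antisense RNA gene Hoxb5os, which lies within the cluster among Hoxb5, Hoxb6 and Hoxb7, read 6.00, 6.48 and 6.19 in the control-labelled and 5.79, 5.86 and 5.75 in the mutant-labelled arches. Its groups did not overlap, but the change of -0.43 (SE 0.12) did not pass (limma, adjusted p = 0.0878). The strand its probe set reads was not determined here.

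Outside the cluster the large changes did not continue. Of the 10 nearest measured genes on each side, in RefSeq gene order, 1 rose and 1 fell out of 20 (limma), against 5.53% of all genes passing in either direction. The immediate neighbours, Ttll6 beyond Hoxb13 and Skap1 beyond Hoxb1, a tubulin-modifying enzyme gene and a T-cell adaptor gene, had changes of 0.05 and 0.06 (limma, adjusted p = 0.811 and 0.746). Skap1 lay close to the 25th percentile, at a mean of 4.47 in the control-labelled arches, as did B4galnt2 (4.55) and Gip (4.61). Calcoco2 and 4833417C18Rik lay below it, at control-labelled means of 3.26 and 4.12, so that a fall in them might not show. Igf2bp1, an RNA-binding protein gene and the seventh on the Hoxb13 side, rose by 0.44 (SE 0.10; limma, adjusted p = 0.0389), and Copz2, a coatomer subunit gene and the sixth on the Hoxb1 side, fell by 0.58 (SE 0.13; limma, adjusted p = 0.0390). Neither call held without control-labelled array 2 or 3 or without mutant-labelled array 2 or 3, where the limma adjusted p lay between 0.0576 and 0.166, and Igf2bp1 also missed the threshold without control-labelled array 1 (0.0618). The other probe sets of Igf2bp1 had changes of 0.74, 0.30 and 0.32. No probe set of Igf2bp1 or Copz2 passed when adjusted over all probe sets (limma).

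**Figure D3:**
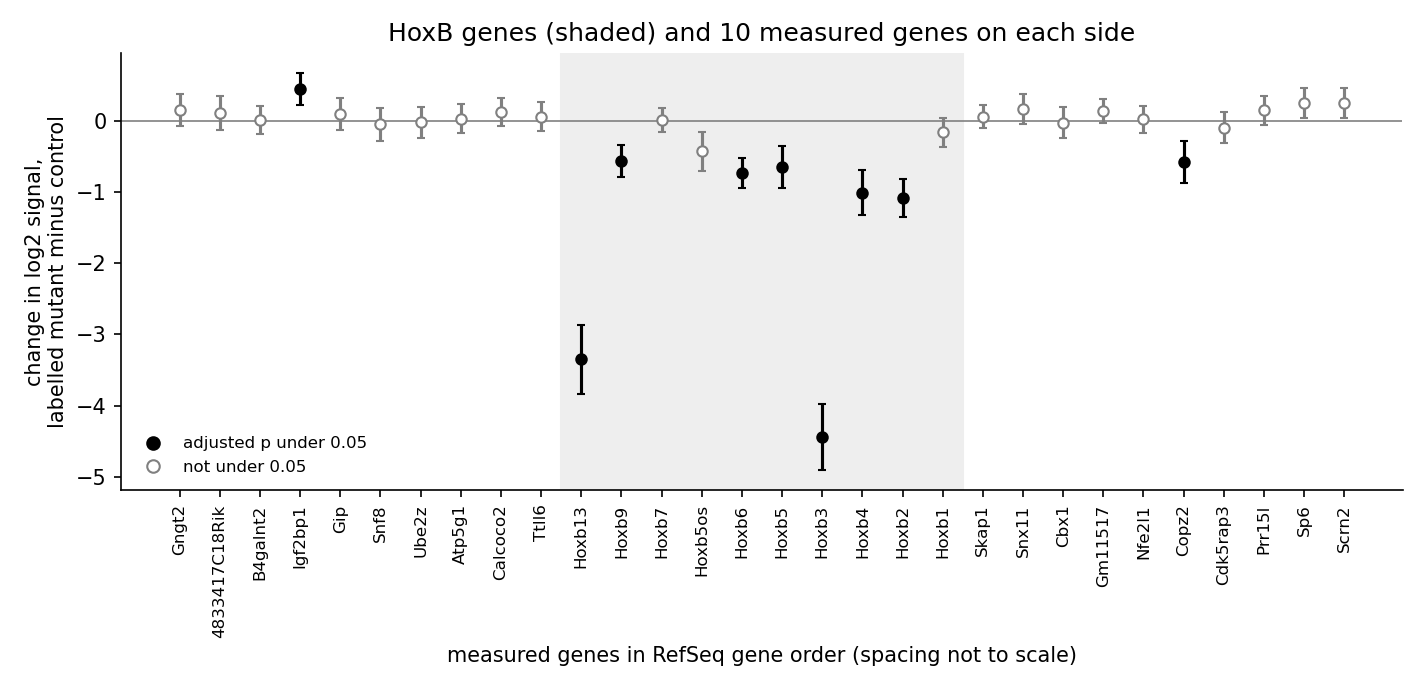
Change in log2 signal with its 95% interval for the measured transcripts of the HoxB cluster (shaded) and the 10 nearest measured genes on each side, in RefSeq gene order with spacing not to scale; filled points passed an adjusted p of 0.05 over all genes. Changes outside the shading lie between -0.58 and 0.44, while Hoxb3 (probe set 1456229_at) and Hoxb13 reach -4.44 and -3.35.

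Set beside their paralogues in the other clusters, HoxB members had neither the largest nor the smallest changes throughout. Both members of group 2 fell, with changes of -1.09 for Hoxb2 and -3.09 for Hoxa2, the main Hox gene of the second arch. In group 3, Hoxb3 had changes of -4.44 in probe set 1456229_at and -0.98 in 1427605_at. Hoxa3 and Hoxd3 had changes of -0.28 and -0.07 that did not pass. Hoxd3 averaged 3.94 and 3.87, below the 25th percentile of signals in both groups. In group 4 all 3 genes measured fell, with -1.01 for Hoxb4, -0.37 for Hoxa4 and -3.60 for Hoxc4, though Hoxa4 lay below the 25th percentile on every array. For Hoxb5 (-0.65), its paralogues Hoxa5 and Hoxc5 had changes of -0.57 and -0.32 that did not pass.

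Further along the axis, Hoxb6 fell by 0.73, and Hoxc6 had a change of -0.16 that did not pass. In group 7, Hoxa7 fell by 1.06, and Hoxb7, at low signals, had its change of 0.01. All 4 genes of group 9 fell, with -0.56 for Hoxb9 and -0.52 for Hoxd9 but -7.07 for Hoxa9 and -2.12 for Hoxc9. In the last group Hoxb13, Hoxc13 and Hoxd13 fell, with changes of -3.35, -1.37 and -4.42, and Hoxa13 had a change of -0.35 that did not pass. No difference between paralogues was tested. By cluster, 6 of 9 HoxA (the dim Hoxa4 among them), 7 of 9 HoxB, 5 of 7 HoxC and 4 of 8 HoxD genes fell. The median changes were -1.06, -0.73, -2.12 and -0.38 in that order. Among all genes 4.3% fell. Falls of more than 2 were made by 2 HoxB genes, against 4 HoxA, 4 HoxC and 1 HoxD gene.

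**Figure D4:**
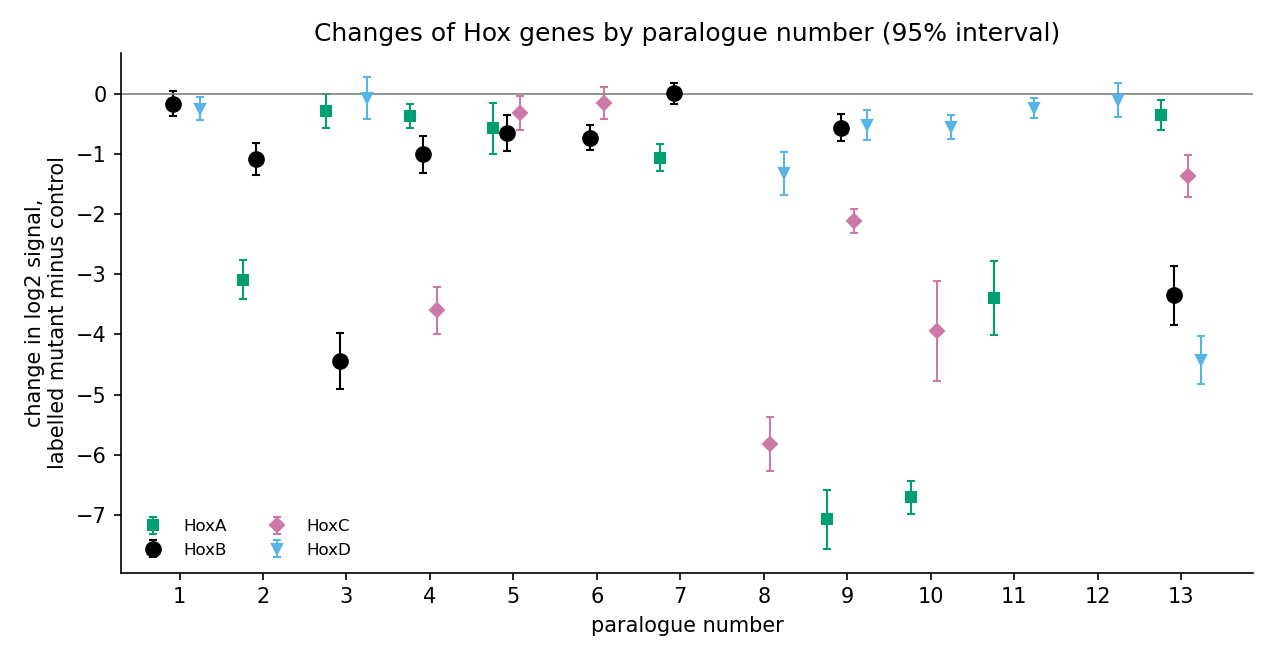
Change in log2 signal with its 95% interval for each measured Hox gene by paralogue number, with the cluster given by symbol and colour. Hoxb3 (probe set 1456229_at) lies far below Hoxa3 and Hoxd3, Hoxb9 lies far above Hoxa9, and no measured Hox gene passed as higher.

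Hox proteins bind DNA with cofactors of the TALE class, the Pbx, Meis and Pknox (Prep) proteins. Of 8 cofactors, 1 was lower, 1 was higher and 6 missed the threshold, and the median change was -0.02. For comparison, 5.53% of all genes passed in either direction. Meis1 fell by 0.95 from 10.17 ± 0.24 to 9.22 ± 0.08 (SE 0.12; limma, adjusted p = 0.0033), with changes of -1.56 and -0.04 in its other probe sets. Pknox2 rose by 0.71 (SE 0.12; limma, adjusted p = 0.0102), and missed the threshold without mutant-labelled array 2 (0.0503) or 3 (0.0505). With floored signals both missed it (limma, adjusted p = 0.0557 for Meis1 and 0.0785 for Pknox2). Pbx2 and Meis2, both bright, had changes of -0.01 and -0.32 that did not pass.

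HoxB transcription is started by Cdx factors and retinoic acid, and in the hindbrain by Egr2. Of 11 such upstream genes, 1 was lower, 0 were higher (limma, with 1 higher at an unadjusted p below 0.05) and 10 missed the threshold. Their median change was -0.0033. Passing in either direction held for 5.53% of all genes. Aldh1a2, the enzyme that makes retinoic acid in the embryo, read 8.96, 9.14 and 9.21 in the control-labelled and 7.88, 7.63 and 7.60 in the mutant-labelled arches. Its groups were well apart, and it fell by 1.40 (SE 0.10; limma, adjusted p = 1.81e-04). The retinoic acid receptor genes Rara and Rarb, the second of them also induced by retinoic acid, had changes of -0.0033 and -0.11, and Cdx1 and Cdx2 had 0.19 each at signals close to the 25th percentile.

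Among 5 genes reported elsewhere to depend on Hox proteins, Gata2, Gata3, Epha2, Ret and Kdr, 0 passed with limma, and 1, which was higher, had an unadjusted p below 0.05. Their changes lay between 0.02 and 0.36. None of 11 PRC2 subunits passed with limma either, against 1 higher and 1 lower at an unadjusted p below 0.05, and the lowest and highest changes were -0.27 and 0.18. Ezh2 is among these subunits, and whether its probe set reads the deleted part is not known here.

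Some markers of neurons, trunk and limb mesenchyme, hindbrain and muscle were also lower in the mutant-labelled arches. For comparison, 4.3% of all genes fell and 224 of 18194 rose. Of 8 neuron markers 5 fell, 0 rose and 3 did not pass (limma, and also 0 higher at an unadjusted p below 0.05), with a summed linear signal of 2402 to 2962 in the control-labelled and 1015 to 1272 in the mutant-labelled arches. The neurofilament gene Nefl fell by 2.56, while Elavl3, Elavl4 and Dcx had changes of -0.04, -0.11 and -0.53 that did not pass. The linear sum weighs the brightest marker most, here Isl1 with means of 10.10 and 9.25. Of 9 trunk and limb mesenchyme markers 5 fell, 1 rose and 3 did not pass, at sums of 3052 to 3858 and 1472 to 2214. The T-box genes Tbx15 and Tbx4 had changes of -3.18 and -1.52, and Tbx5 also fell. Hand1 went the other way and rose by 0.44. Meox2, Fgf10 and Shox2 did not pass, and Shox2 was the brightest of this list in the control-labelled arches. Whether each marker is specific to trunk and limb was not tested. Of 8 hindbrain and neural tube markers 3 fell and 5 did not pass, at sums of 1402 to 1711 and 856 to 989. En2 was lower by a log2 change of -4.25. Pax6, Sox1, Egr2 and Pax3 had changes of 0.16, 0.14, -0.03 and -0.13 that did not pass. Olig2, which also did not pass, lay below the 25th percentile on every array. In the control-labelled arches the brightest of these markers were Sox2 and En2, with means of 9.255 and 8.59.

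Of 6 muscle markers 4 fell and 2 did not pass, at sums of 1199 to 1695 and 474 to 960. Pax7 and Myog had changes of -0.97 and -2.25. Myod1 and Actc1 passed narrowly (limma, adjusted p = 0.0455 and 0.0494). The 2 that did not pass, Des and Myf5, had changes of 0.14 and -0.19. Of 15 arch 1 mesenchyme markers 8 were higher, 0 lower and 7 not past the threshold, at sums of 17235 to 20252 and 22576 to 25073. Among all 18194 genes 224 passed as higher. The jaw patterning gene Dlx5 rose by 1.18. The 7 that did not pass, Barx1, Prrx1, Twist1, Alx1, Alx4, Pitx1 and Lhx6, had changes between -0.20 and 0.36. Of 6 epithelium markers 1 rose, and of 5 endothelium and 5 erythroid markers 0 passed with limma, against 0 and 1 at an unadjusted p below 0.05. The part of these markers in the HoxB differences was not tested.

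The genes outside the Hox clusters whose values over the 6 arrays most resembled those of Hoxb3 were Lhx9, Dmrt2, Uty, En2 and Tcf24. Likeness was the Euclidean distance between the 6 log2 values, each taken from the gene's own mean, and was 0.78, 0.79, 0.80, 0.80 and 1.05 for these genes in that order. Their changes were -4.19, -4.30, -4.94, -4.25 and -4.78. Uty is a Y-linked gene, so that this likeness is carried by the difference between the groups, in which sex pattern and label coincide.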

How the data were processed

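Total RNA was extracted with a Qiagen RNeasy kit and biotin-labelled, per the labels' protocols. The authors deposited 1 value per probe set for each of the 6 arrays. The deposited values are taken as log2 signals, inferred from their range of 2.63 to 14.68, and all arrays share their quartiles, so the authors had brought them to a common distribution. For the summary method, background correction and software: not given in the sources used here. Such normalization removes differences in total signal, and low signals compress changes.

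Gene names came from GEO's annotation of the platform: 34958 had 1 symbol, 932 several and 9211 none. Genes were ordered with the RefSeq table of GRCm38.p6, and the coordinates printed are those of the RefSeq promoter windows. Differences were fitted with limma 3.58.1 (lmFit, eBayes; R 4.3.3) as a two-sided test with no covariate, with Benjamini-Hochberg adjusted p over all genes or all probe sets and a threshold of 0.05. The labels describe separate embryos. The fit was tested on simulated data. The precision is limited by the number of arrays.

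Genes named are all members, flanking genes that passed (plus the 2 immediate neighbours), Hox paralogues of members, up to 3 genes per list by moderated t, the 5 genes most like the member with the largest change, and checks of sex and target. Pbx2, Meis2, Rara, Rarb, Cdx1, Cdx2 and the 5 Hox-dependent genes are further examples chosen after their values were seen. Hand1, Actc1 and the markers named as not passing were likewise named after their values were seen. The members and lists were chosen with earlier results of these data known. Alternatives were renormalization, median centring, low-signal filters, trend and robust settings, a replicate block, other choices of probe set and leaving out each array.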

Additional observations from a re-analysis of the deposited data

How the results depend on the processing

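All 7 HoxB members that fell kept their direction under every alternative run, and 111 of 124 values of members kept direction and side of the threshold, 10 lost the call and 3 changed sign. Raising all signals below an array's 20th percentile to that level left calls for fewer features: 4 members passed (Hoxb2, Hoxb3, Hoxb6 and Hoxb13), 2 of the single-symbol probe sets and 0 flanking genes (5 at an unadjusted p below 0.05, limma), while over all genes 329 passed instead of 1007. With a replicate block 6 members passed, 6 probe sets and 0 flanking genes (3 at an unadjusted p below 0.05, limma), and 657 genes in all. Arrays with the same replicate number did not deviate together (correlations of -0.21, -0.12 and -0.07). No pairing by number was seen, but with 3 arrays per group this check cannot exclude it. Averaging the probe sets of a gene, 1 flanking gene passed, and with the probe set of highest variance 0 did (3 at an unadjusted p below 0.05 in each). Leaving out 1 array at a time gave 5 to 7 members, 4 to 7 probe sets and 0 to 2 flanking genes; where the flanking count was 0, 2 to 5 had an unadjusted p below 0.05 (limma). The change of Hoxb1 turned to 0.00067 with floored signals, and that of Hoxb7, 0.0093 with all arrays, ranged from -0.022 without mutant-labelled array 2 to 0.045 without mutant-labelled array 1, with -0.017 without control-labelled array 2. Both genes gave low signals and were removed by the filter on dim probe sets. The cause of the other differences was not tested. For Hoxb3 the change ranged from -4.62 to -2.71 over the alternatives, and for Hoxb13 from -3.52 to -3.07. No alternative represented Hoxb3 by probe set 1427605_at alone, whose change was -0.98.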

Other observations

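Among the 7 members that fell, the arrays of a group did not keep 1 order. Mutant-labelled array 1 was the highest of its group for 4 of them, Hoxb2, Hoxb3, Hoxb4 and Hoxb13, and the lowest for 2, Hoxb5 and Hoxb9. Mutant-labelled array 2 was the lowest for Hoxb2, Hoxb3 and Hoxb4. Control-labelled array 2 was the highest for 4, Hoxb3, Hoxb5, Hoxb6 and Hoxb9. These are descriptions of 3 arrays per group with no test.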
